A study of Mus musculus with 5 samples.

Results

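The genes described here are the cell cycle and DNA replication genes on a mouse cDNA array. They were taken by name from the symbols of the array's platform annotation. The set holds the Mcm, Orc, Gins, E2f, Cenp, Bub, Aurk, Plk and Kif families and Cdc genes with a number. It also holds the A, B, D and E cyclins, the numbered Cdk genes and Mki67, Top2a, Pcna, Rrm1, Rrm2, Tyms and Birc5. Of 9050 genes with 1 symbol on the array, 101 fitted, carried by 156 probes. Of these, 94 had a value on all 5 arrays, among 8452 such genes in all. The rule goes by name and uses no measured value, though the set was proposed with earlier results of these data known.

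The samples were macrophages that had been grown out of C3H/HeJ bone marrow in culture with human CSF-1, on which cells of this lineage depend. C3H/HeJ mice carry a mutation in Tlr4, the receptor for bacterial lipopolysaccharide (LPS), and are hyporesponsive to it. Cells were collected without LPS (0 h) or after 0.5, 2, 7 or 21 h with 10 µg per ml LPS of S. minnesota. Each time was measured on 1 two-colour array, with total RNA of whole C57BL6/J embryos of 17.5 days in the second channel of every array. With 1 array for each time, no difference below could be checked against replicates and no test was made. Whether a time stands for 1 culture or several is not given in the sources used here.

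Values are the deposited log ratios of macrophage over embryo, read as log10, after each array was set to a median of 0 over all 8452 genes. Neither the log base nor the direction is stated. The direction is likely, from marker genes: the median ratio of 7 measured macrophage genes was 1.17, with 5 of them 2-fold above embryo, and that of 10 embryo tissue genes was -1.33, with all 10 2-fold below. Of the macrophage genes, Cd68 at -0.19 and Tyrobp at -0.17 lay below 0. A gene is counted as higher or lower where it differs at least 2-fold, which is 0.301 in log10 units. The 0.5 h array stood apart, with a correlation of 0.51 with the 0 h array over all genes, against 0.88, 0.85 and 0.77 for the 2, 7 and 21 h arrays. Ratios against embryo are therefore means ± SD over the 0, 2, 7 and 21 h arrays (n = 4 arrays of different times), and the 0.5 h array is given beside them. On these 4 arrays, between 19571 and 19674 of 19828 probes had a value, and 18724 had one at 0.5 h.

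A dividing cell first licenses its replication origins by loading the MCM helicase with the help of the origin recognition complex and Cdc6. Cyclin D with Cdk4 or Cdk6 then phosphorylates the retinoblastoma protein, which frees E2F factors to switch on the genes of DNA synthesis, many of them MCM genes. In mitosis, Cdk1 with B cyclins, the Aurora and Polo-like kinases, the centromere proteins and motor proteins of the kinesin family divide the chromosomes. Macrophages grown from bone marrow depend on CSF-1 to divide, while an embryo near birth holds many dividing and many resting tissues. RNA ratios in bulk samples cannot tell a smaller share of dividing cells from less RNA in each of them.

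The E2F sites ahead of MCM genes are the classic link between the cell cycle switch and replication. Promoter sequences (RefSeq, GRCm38.p6) of 85 of the 101 genes were searched, on both strands and over 250 bases before the gene start, for the letters TTTCGCGC, TTTGGCGC, TTTCCCGC and TTTGCCGC. Matches stood in 11 of the 85 (12.9%), against 252 of 7248 array genes (3.48%) and 1.86% of 32851 promoters in the table. They were Cdc6, Cdk1, Cdk2, Cenpb, Cenpl, Cenpm, Gins3, Mcm5, Mcm6, Mcm7 and Mcmbp. Shown here are the MCM genes Mcm6 (chr1:128359706-128359955) and Mcm7 (chr5:138171884-138172133), the centromere gene Cenpb (chr2:131180068-131180317) and the kinase gene Cdk2 (chr10:128705052-128705301). All 4 lie on the minus strand and are written 5′ to 3′ towards the gene, with the matching letters in capitals, and Mcm7 has another listed start without a match.
Mcm6: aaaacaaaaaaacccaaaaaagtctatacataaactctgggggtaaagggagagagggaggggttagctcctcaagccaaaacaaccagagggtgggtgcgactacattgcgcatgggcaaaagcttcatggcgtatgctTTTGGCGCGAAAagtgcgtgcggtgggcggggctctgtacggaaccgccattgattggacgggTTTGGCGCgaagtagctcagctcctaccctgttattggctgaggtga
Mcm7: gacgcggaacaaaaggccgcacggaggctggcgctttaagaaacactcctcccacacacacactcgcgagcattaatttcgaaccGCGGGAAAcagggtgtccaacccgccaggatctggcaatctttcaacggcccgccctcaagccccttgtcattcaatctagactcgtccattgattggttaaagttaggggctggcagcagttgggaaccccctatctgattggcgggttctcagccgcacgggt
Cenpb: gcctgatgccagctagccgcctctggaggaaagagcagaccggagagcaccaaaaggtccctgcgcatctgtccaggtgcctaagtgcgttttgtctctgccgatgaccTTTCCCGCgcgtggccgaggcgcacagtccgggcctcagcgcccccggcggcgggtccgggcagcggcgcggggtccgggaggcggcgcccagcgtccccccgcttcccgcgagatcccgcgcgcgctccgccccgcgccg
Cdk2: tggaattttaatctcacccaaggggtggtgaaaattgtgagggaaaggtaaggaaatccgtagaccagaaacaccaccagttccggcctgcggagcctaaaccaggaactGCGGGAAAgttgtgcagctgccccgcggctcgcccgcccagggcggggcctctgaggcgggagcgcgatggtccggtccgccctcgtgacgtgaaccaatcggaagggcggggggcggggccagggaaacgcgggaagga
Mcm6 held 3 matches, of which the pair beginning 110 and 106 bases before the start overlap, and the third began 47 bases before it. The match began 165 bases before the start in Mcm7, 141 in Cenpb and 140 in Cdk2. A match is a stretch of letters and not a proven site. The letters CCAAT stood in 56.5% of the promoters of the set against 40.6% of array genes, and the cell cycle element letters TTTGAA or TTCGAA in 23.5% against 15.7%. The 9 measured genes with E2F letters had a median ratio against embryo of 0.16, and the 71 without had 0.07. For CCAAT the medians were 0.11 in 44 genes with the letters and 0.04 in 36 without. The cell cycle element went the other way, with 0.05 in 19 genes with its letters and 0.08 in 61 without. The genes with E2F letters differed among themselves: Mcm6 stood 2-fold above embryo and Cdk2 below 0.

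Against whole embryo, the cell cycle set lay slightly above the array as a whole. Its median ratio was 0.07, against 0.01 over all genes, and 59 of 94 genes (62.8%) were above 0, against 51.8% of all genes. The genes counted as higher numbered 15 (16.0%; 9.34% of all genes) and those counted as lower 2 (2.13%; 8.92% of all genes). Values above 0 on each of the 4 arrays were found for 45 genes (47.9%; 29.5% of all genes), and values below 0 on each for 21 (22.3%; 29.8% of all genes). Each of the 4 arrays stood 2-fold above embryo for 5 genes, Ccnd1, Cdc42se2, Cdk6, Mcm3ap and Pcna (5.32%; 3.38% of all genes), and 2-fold below it for Kif21b alone (1.06%; 4.76% of all genes).

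**Figure D1:**
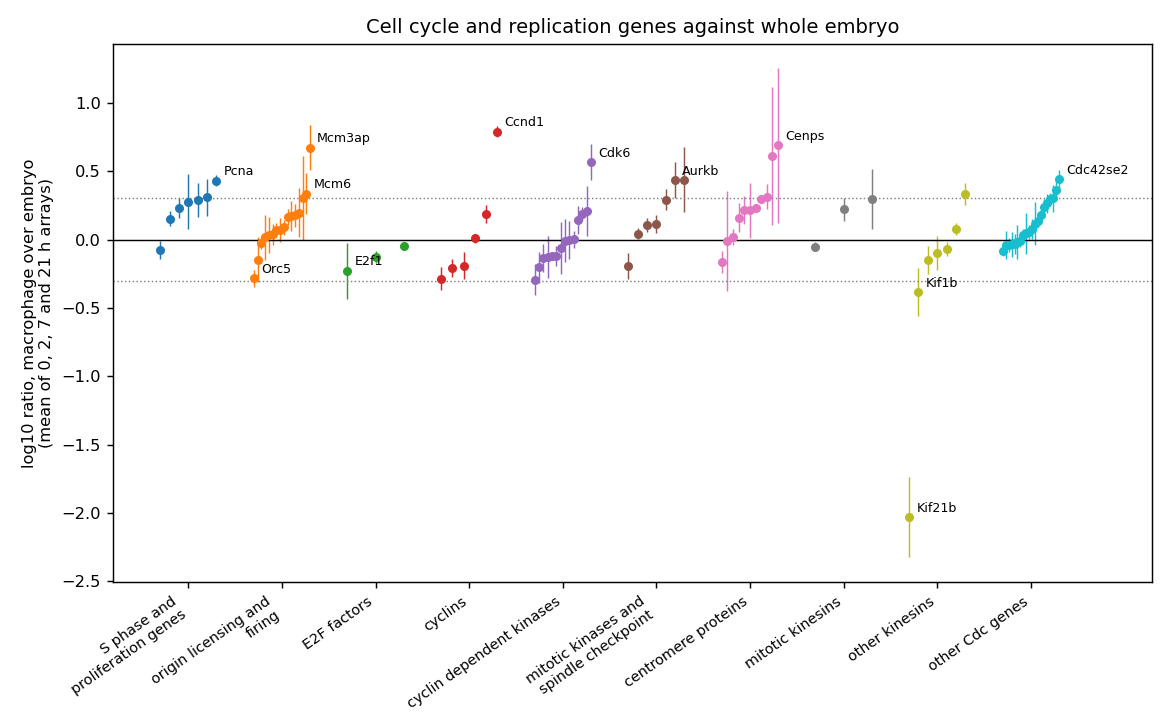
Mean log10 ratio of macrophage over embryo for each of the 94 measured genes, by family, over the 0, 2, 7 and 21 h arrays. Points are genes, bars are the SD over the 4 arrays, and dotted lines mark 2-fold. Ccnd1 is highest at 0.79 and Kif21b lowest at -2.03.

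The D cyclins differed among themselves. Ccnd1, cyclin D1, the cyclin that growth factors induce in G1, had log ratios of 0.77, 0.61, 0.85, 0.78 and 0.75 at 0, 0.5, 2, 7 and 21 h. Its mean was 0.79 ± 0.04, a 6.14-fold excess over embryo and the highest ratio of the set. Over the same 4 arrays its 3 probes averaged 0.78, 0.80 and 0.79, but at 0.5 h they read 1.06, 0.87 and -0.11. Ccnd2 read -0.35, 0.17, -0.34, -0.16 and -0.29 at the same times, with a mean of -0.29 ± 0.09. Ccnd3 read -0.12, -0.18, -0.21, -0.23 and -0.27, below 0 on every array, with a mean of -0.21 ± 0.07. Cyclin D1 was thus the D cyclin above embryo in these cells, and the other D cyclins were below it, short of 2-fold. For Ccnd2 the 5 probes ran from -0.52 to 0.05, so its size is less certain than that of Ccnd1. At 0.5 h the Ccnd2 probes ran from -0.56 to 1.39. Among the later cyclins, Ccnb2 of mitosis averaged 0.19 ± 0.07, with probes at 0.38 and 0.00. Ccne1, of the entry into S phase, averaged 0.01 ± 0.03. Ccna2, of S phase and G2, averaged -0.19 ± 0.10. Its other probe, without a 21 h value, read 0.24, 0.28, 0.24 and 0.23 at 0, 0.5, 2 and 7 h, so the Ccna2 probes disagree in sign.

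The kinases that cyclin D binds also differed from each other. Cdk6 read 0.55, 0.65, 0.73, 0.59 and 0.40 at 0, 0.5, 2, 7 and 21 h, a mean of 0.57 ± 0.13 or 3.68-fold. Cdk4, its close relative, read -0.12, -0.18, -0.10, -0.14 and -0.13, a mean of -0.12 ± 0.02. All 5 arrays put Cdk6 above embryo and Cdk4 slightly below. Cdk2, the partner of cyclins E and A, read -0.25, -0.42, -0.24, -0.29 and -0.03, a mean of -0.20 ± 0.12. Cdk12, which acts in transcription and not in the cycle itself, averaged -0.29 ± 0.11. Of the 14 measured Cdk genes, 5 lay above 0 (51.8% of all genes did). Cdk6 alone was counted as higher (9.34% of all genes were), and the family median was -0.03. Cdk1, the kinase of mitosis, lacked a 0.5 h value and read -0.11, 0.09, 0.07 and 0.05 at 0, 2, 7 and 21 h, all within 2-fold of embryo.

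None of the E2F factors had a mean ratio 2-fold from embryo, though E2f1 was past 2-fold below it at 0, 0.5 and 7 h. The 3 measured on all arrays had negative means, with a median of -0.13. E2f1, an activating member whose own gene is an E2F target, read -0.38, -0.37, -0.28, -0.33 and 0.07 at 0, 0.5, 2, 7 and 21 h. Its mean was -0.23 ± 0.21. The 21 h array was the only one of the 5 above 0 for E2f1, and the other 4 lay within a narrow band. E2f4, mainly a repressor, lacked a 7 h value and read 0.06, -0.14, 0.09 and -0.01 at 0, 0.5, 2 and 21 h.

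Of the origin licensing and firing genes, 16 of 17 were measured, with a median of 0.08. Of these, 13 lay above 0 (51.8% of all genes did) and 3 were counted as higher (9.34% of all genes were). Mcm6, a helicase subunit, read 0.22, 0.06, 0.24, 0.33 and 0.55 at 0, 0.5, 2, 7 and 21 h, a mean of 0.34 ± 0.15 or 2.17-fold. The 21 h array was the highest and the 0.5 h array the lowest. The other helicase subunits with values on all arrays had lower means. Mcm4 averaged 0.16 ± 0.06, Mcm7 0.04 ± 0.08 and Mcm2 -0.15 ± 0.16. Mcm5 lacked a 2 h value and read 0.30, -0.04, 0.28 and 0.34 at 0, 0.5, 7 and 21 h. Gins2, part of the GINS complex that activates the helicase, read 0.21, 0.98, 0.55, 0.55 and -0.09, a mean of 0.30 ± 0.31. Its SD was as large as its mean, and its 21 h array was below embryo. Mcm3ap, which carries the Mcm prefix for binding Mcm3 and is best known for mRNA export, averaged 0.67 ± 0.17. Cdc6, the MCM loader, averaged 0.03 ± 0.13 with probes at -0.19 and 0.26, Cdc45 averaged -0.02 ± 0.05 and Orc5 -0.28 ± 0.06, the lowest of the group.

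Of the 7 genes of DNA synthesis and proliferation, Pcna and Birc5 were counted as higher (9.34% of all genes were), 6 had means above 0 (51.8% of all genes had), and the median was 0.28. Pcna, the sliding clamp of the polymerases, read 0.38, 0.19, 0.42, 0.48 and 0.45 at 0, 0.5, 2, 7 and 21 h, a mean of 0.43 ± 0.04 or 2.70-fold. Every array placed Pcna above embryo, and the 4 averaged arrays each at 2-fold or more. Of its 4 probes, 3 read 0.49, 0.58 and 0.68 and the other -0.03. Rrm2, the regulated subunit of ribonucleotide reductase, read 0.41, 0.04, 0.34, 0.28 and 0.12, a mean of 0.29 ± 0.12. Its partner Rrm1 averaged 0.15 ± 0.06, with probes on both sides of 0 at -0.03 and 0.34. Tyms, which makes thymidylate, averaged 0.23 ± 0.07, with probes at 0.08 and 0.39. Top2a, the topoisomerase that untangles sister chromatids, averaged -0.08 ± 0.07, with probes of opposite sign at -0.36 and 0.21. Mki67, the Ki-67 antigen of dividing cells, read 0.13, 0.07, 0.21, 0.19 and 0.57, a mean of 0.28 ± 0.20, with the 21 h array well above the others. Birc5, survivin of the chromosomal passenger complex, averaged 0.31 ± 0.14.

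Of the mitotic kinases and spindle checkpoint genes, 6 of 7 lay above 0 (51.8% of all genes did), with a median of 0.11. Aurkb, the kinase of the chromosomal passenger complex, read 0.42, 1.12, 0.47, 0.58 and 0.27 at 0, 0.5, 2, 7 and 21 h, a mean of 0.43 ± 0.13 or 2.71-fold, with probes at 0.53 and 0.33. Plk4, which starts centriole duplication, read 0.36, -1.78, 0.63, 0.62 and 0.14, a mean of 0.44 ± 0.24. With the 0.5 h array included, the mean of the Plk4 probe used would be -0.0056, so its place rests on leaving that array out. Another Plk4 probe, without a 0.5 h value, averaged 0.34 over the 0, 2, 7 and 21 h arrays. Plk1, the main Polo-like kinase of mitosis, averaged 0.11 ± 0.05, and the checkpoint genes Bub1 and Bub3 averaged 0.11 ± 0.07 and 0.29 ± 0.07. Plk3, a stress-responsive relative, averaged -0.19 ± 0.10 and was the one gene of this group below 0. Cdc20, which activates the anaphase-promoting complex, averaged 0.05 ± 0.15.

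Centromere proteins had a median of 0.22. Of 11 measured, 9 lay above 0 (51.8% of all genes did) and 3 were counted as higher (9.34% of all genes were). Cenpb, which binds a repeat in centromeric DNA, read 0.28, 0.11, 0.35, 0.42 and 0.21, a mean of 0.31 ± 0.09. Cenpa, the histone variant that marks centromeres, averaged 0.23 ± 0.02, with little change between the 4 arrays. Cenps and Cenpw, which share a histone fold, had high means with a wide spread, 0.69 ± 0.56 and 0.61 ± 0.51. Both varied widely between arrays, and their courses are given below. The mitotic kinesin Kif23, which works in cytokinesis, averaged 0.30 ± 0.22.

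Among the other kinesins are the transport motors, and these held both genes counted as lower. Kif21b, a motor known from neurons, read -1.84, -2.42, -2.32, -1.72 and -2.24, a mean of -2.03 ± 0.30 and the lowest ratio of the set. Its low ratio rests on 1 probe. The other Kif21b probe, which lacked a 21 h value, read 0.23, -0.18, 0.18 and 0.20 at 0, 0.5, 2 and 7 h. The probes disagree on whether Kif21b is below embryo at all. Kif1b, a motor for mitochondria and vesicles, read -0.48, 0.31, -0.57, -0.30 and -0.18, a mean of -0.38 ± 0.18. Kif21a, by contrast, averaged 0.33 ± 0.08 and was counted as higher. The remaining Cdc genes include many named for Cdc42, a GTPase of the cytoskeleton, rather than for the cycle. Of these, Cdc42se2 averaged 0.44 ± 0.07 and Cdc42ep3 0.36 ± 0.07, both counted as higher, and Cdc42 itself averaged 0.27 ± 0.07. The 6 Cdc42 probes ran from -0.35 to 0.43. Another Cdc42ep3 probe, without a 7 h value, averaged 0.07 over the 0, 2 and 21 h arrays. Thus 4 of the 15 genes counted as higher, Mcm3ap, Kif21a, Cdc42se2 and Cdc42ep3, are not known mainly for cell division.

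Probes of 1 gene set a limit to these ratios. Of the 94 genes, 66 were read by 1 probe. For the 28 with at least 2 probes, the median SD between probes was 0.16, against 0.13 over the 2968 such genes on the array. In 14 of the 28, probes lay on both sides of 0, against 1414 of the 2968 (47.6%). The SD between probes was 0.01 for Ccnd1 and 0.31 for Pcna.

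**Figure D2:**
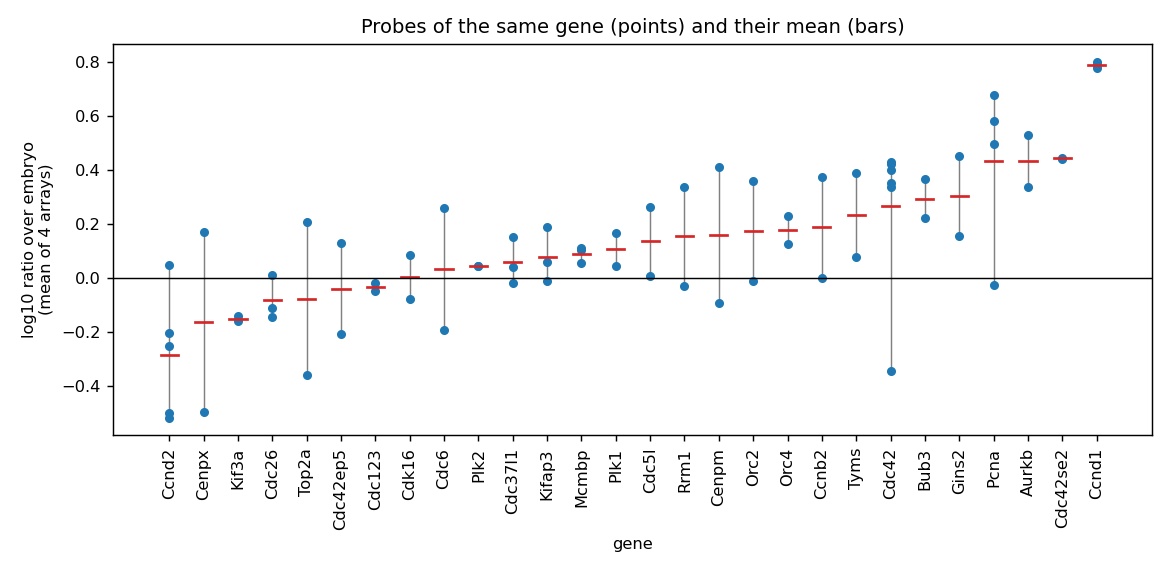
Log10 ratio over embryo of each probe, averaged over the 0, 2, 7 and 21 h arrays, for the 28 genes with at least 2 probes. Points are probes, red bars their mean, and grey lines their span. The 3 Ccnd1 probes coincide near 0.79, while those of Pcna run from -0.03 to 0.68.

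Over the time course the set as a whole differed little from the array. The median span of the 0, 2, 7 and 21 h arrays was 0.19 for these genes, against 0.20 for all genes. At 2, 7 or 21 h, 16 genes were 2-fold from 0 h (17.0%; 16.2% of all genes), close to the array's own share, and none was so at all 3 times. Each of these comparisons uses the same 0 h array, so their values are not independent. Differences also moved together between probes with neighbouring numbers on the array. For each gene counted at 2, 7 or 21 h, the median difference of the 20 neighbouring probes is therefore given as the neighbour value, and a call that ended once it was removed is named. Its part in the result was not tested.

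**Figure D3:**
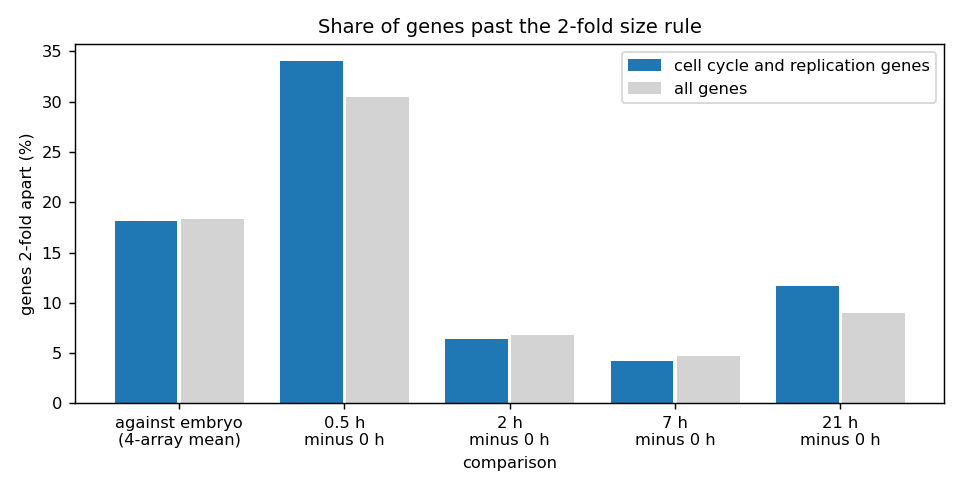
Share of genes (%) at least 2-fold apart in either direction, for the 94 cell cycle genes (blue) and all 8452 genes (grey), in each comparison. At 2 h (6.38% against 6.81%) and 7 h (4.26% against 4.74%) the shares are close, and at 0.5 h (34.0% against 30.5%) and 21 h (11.7% against 9.02%) the set is slightly above.

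At 0.5 h, 15 genes (16.0%; 19.9% of all genes) were counted as higher and 17 (18.1%; 10.6% of all genes) as lower than at 0 h. Quantile normalization gave 6 higher and 21 lower (all genes 1071 and 950). Scaling arrays to 1 spread gave 8 and 15 (all genes 1056 and 492). The largest differences were Cenpl at 2.34 and Cenpw at 1.45, then Kif1b at 0.80, Gins2 at 0.77 ± 0.30 (SD of 2 probes) and Cdc42se1 at 0.77. The lowest were Plk4 at -2.15, Kif21a at -1.14, Mcm2 at -0.97, Kif5b at -0.83 and Mcm3ap at -0.81. For Kif1b the neighbour value was 0.93, larger than its own difference. On this array 7 of the 10 embryo markers were 2-fold higher than at 0 h and 3 lower, and 1 of 7 macrophage markers was higher and 2 lower. Their part in the differences at 0.5 h was not tested.

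At 2 h, 4 genes (4.26%; 4.24% of all genes) were counted as higher and 2 (2.13%; 2.58% of all genes) as lower than at 0 h. Cenps differed by 0.66 or 4.53-fold (neighbour value -0.08), Cenpw by 0.51 or 3.22-fold (neighbour value -0.20), and Cenpl by 0.43 (neighbour value 0.02). Gins2 differed by 0.34 ± 0.32, with a neighbour value of 0.00 and an SD between its 2 probes as large as the difference. Centromere genes thus made up 3 of the 4. Gins1, of the same complex as Gins2, was lower, with a difference of -0.34 (neighbour value -0.09), and at -0.26 with neighbours removed it was short of 2-fold. Kif21b was lower, with a difference of -0.48 (neighbour value -0.03), but with arrays scaled to 1 spread its difference became 0.0024. The other Kif21b probe, without a 21 h value, differed by -0.05 at 2 h. The median difference of the set was 0.02, against -0.01 for all genes, and it turned to -0.0049 after quantile normalization and -0.0018 after scaling to 1 spread. At this time 3 of 7 macrophage markers were counted as higher, with a median difference of 0.25, and 3 of 10 embryo markers as lower, with a median of -0.21; their part was not tested.

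At 7 h, 4 genes (4.26%; 3.35% of all genes) were counted as higher and 0 as lower (1.4% of all genes). With quantile normalization the counts were 3 and 3 (all genes 282 and 379). Cenpw differed by 0.85 or 7.10-fold (neighbour value -0.05), Mcm3ap by 0.37 (neighbour value 0.16), Gins2 by 0.34 ± 0.11 (neighbour value 0.15) and Birc5 by 0.30 (neighbour value 0.19). With the neighbour value taken from each probe and arrays centred again, Birc5 differed by 0.13, Mcm3ap by 0.23 and Gins2 by 0.21. These were all short of 2-fold. Of the 4 genes, Cenpw alone remained counted, at 0.91, but its second probe, without a 0.5 h value, differed by -0.22 at 7 h. Plk4, Kif21a and Cdc42ep4, not counted before, passed 2-fold with neighbours removed, at 0.37, -0.37 and -0.30. The median difference was 0.03, against 0.02 for all genes. Of the markers, 1 of 7 macrophage genes was higher, with a median of -0.05, and 2 of 10 embryo genes were higher and 1 lower, with a median of 0.14; their part was not tested.

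At 21 h, 4 genes (4.26%; 4.33% of all genes) were counted as higher and 7 (7.45%; 4.69% of all genes) as lower than at 0 h. E2f1 was higher by 0.45 or 2.85-fold (neighbour value 0.08), Mki67 by 0.44 or 2.74-fold (neighbour value 0.10), Mcm6 by 0.33 or 2.14-fold (neighbour value 0.06) and Kif1b by 0.30 (neighbour value 0.02). With neighbours removed, E2f1 at 0.38 and Mki67 at 0.34 remained counted, while Mcm6 at 0.27 and Kif1b at 0.28 fell short of 2-fold. The proliferation gene Gins2 went the other way, with a difference of -0.30 ± 0.11, with a neighbour value of -0.21 and -0.09 left after neighbours were removed. The other genes counted as lower were Cenps, with a difference of -0.70, Cenpn at -0.57, Kif23 at -0.43, Kif21b at -0.39, Cdk18 at -0.34 and Cdc42se1 at -0.32, the last 3 with neighbour values of -0.06, -0.06 and -0.09. With neighbours removed, Cdk18 at -0.28 and Cdc42se1 at -0.23 were also short of 2-fold, and Cdc6, Mcm2 and Rrm2, not counted before, passed it at -0.31, -0.32 and -0.31. The centromere genes Cenps and Cenpn, with neighbour values of -0.20 and 0.00, and the cytokinesis motor Kif23, with 0.04, thus lay opposite to Mki67. The set's median difference was -0.02, against 0.00 for all genes. At 21 h no macrophage or embryo marker was 2-fold from 0 h, with medians of 0.08 and 0.05.

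**Figure D4:**
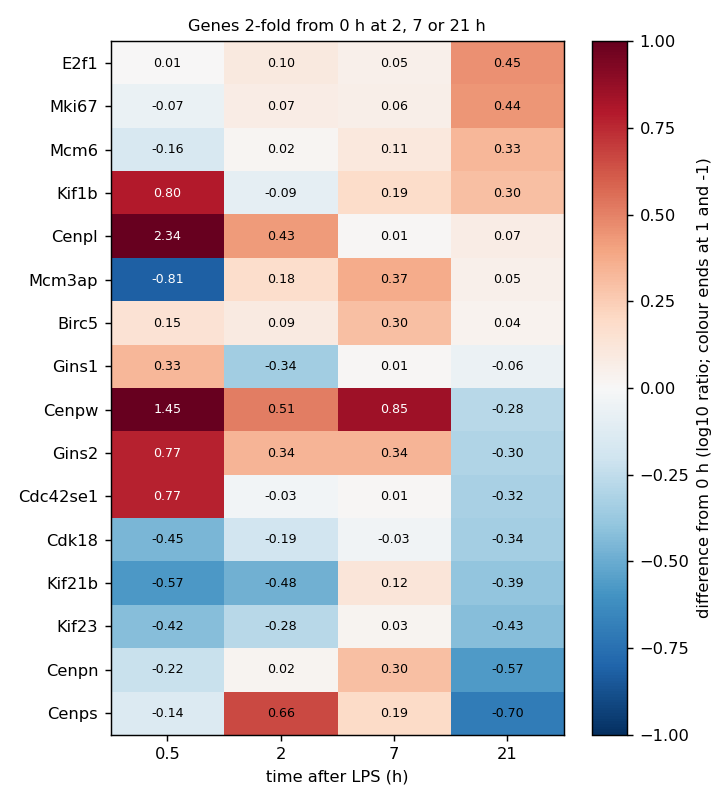
Difference from 0 h in log10 ratio at 0.5, 2, 7 and 21 h for the 16 genes that were 2-fold from 0 h at 2, 7 or 21 h. Red is higher and blue lower than at 0 h, colours end at 1 and -1, and each cell prints its value. E2f1 and Mki67 head the column at 21 h, and Cenps closes it.

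The 21 h array was 2-fold above every other array for 2 genes, E2f1 and Mki67 (2.13%; 1.44% of all genes), a pattern chosen after the values were seen. It was 2-fold below every other array for Cenpn, Cenps and Gins2 (3.19%; 1.37% of all genes). Cenps read 0.65, 0.51, 1.31, 0.85 and -0.05 at 0, 0.5, 2, 7 and 21 h, and Cenpn 0.05, -0.17, 0.08, 0.35 and -0.52. In both, the 21 h array was the lowest and lay below embryo. Cenpw read 0.34, 1.79, 0.85, 1.19 and 0.06, with the 21 h array again lowest. A second Cenpw probe, without a 0.5 h value, read 0.07, 0.39, -0.15 and 0.59 at 0, 2, 7 and 21 h, with the 21 h array highest, so the probes disagree. A higher value at 2 and 7 h with a lower one at 21 h was found in 16 genes (17.0%; 10.5% of all genes), also chosen after the values were seen. These included 5 centromere genes, and Plk4, whose other probe, without a 0.5 h value, read 0.34, 0.56, 0.16 and 0.29 at 0, 2, 7 and 21 h and so was lower at 7 h than at 0 h. Higher values at all of 2, 7 and 21 h were found in 18 genes (19.1%; 16% of all genes), among them Mcm6, E2f1 and Mki67, each read by 1 probe. Lower values at all 3 times were found in 14 genes (14.9%; 14.2% of all genes). Both shares are near those of the array. Ccnd1 and Cdk4 had spans well under 2-fold over the 4 arrays.

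**Figure D5:**
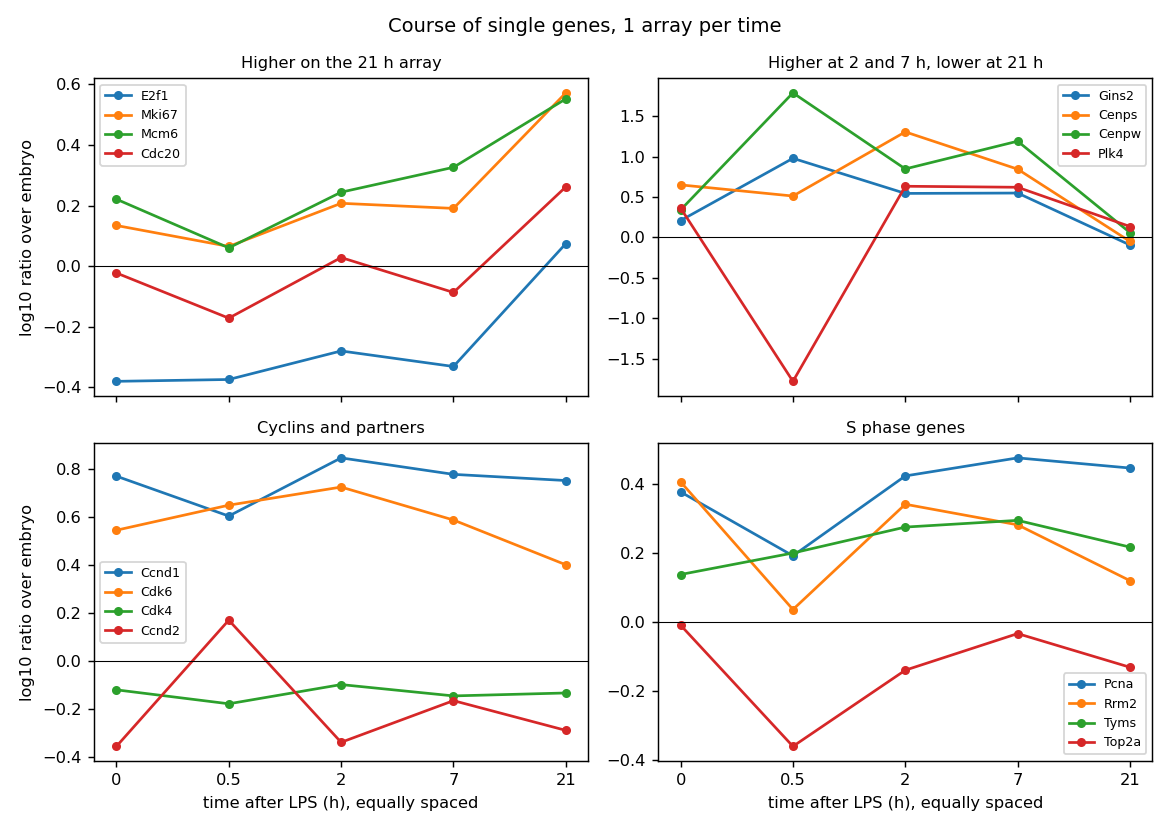
Log10 ratio over embryo on each array for 16 genes in 4 panels, in order of time. E2f1, Mki67 and Mcm6 are highest at 21 h (0.07, 0.57 and 0.55), Gins2, Cenps and Cenpw lowest there, Ccnd1 and Cdk4 nearly level, and Plk4 stands at -1.78 at 0.5 h.

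The 7 genes without all 5 values were read where they could be. Cenph read 0.20, 0.95, -0.12 and 0.27 at 0, 2, 7 and 21 h, Cenpk 0.04, 0.69, -0.15 and 0.06, and the transport kinesin Kifc3 0.33, 0.80, 0.05 and 0.10. In all 3 the 2 h array was the highest, higher than 0 h by 0.75, 0.65 and 0.47, with neighbour values of 0.14, 0.11 and 0.01. Cenph was 2-fold lower at 7 h, with a difference of -0.32 and a neighbour value of -0.18. Cenpq read 0.41, 0.43, 0.46 and 0.08, lower at 21 h with a difference of -0.33 and a neighbour value of 0.01. Mcm5, given above, was 2-fold lower at 0.5 h, with a difference of -0.34 and a neighbour value of 0.06, but not at 7 or 21 h. Cdk1 and E2f4, also given above, did not differ 2-fold from 0 h at any time they were measured.

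Genes of the same pathway outside the set were taken from lists by function. Of 25 replication fork genes 20 were measured, 19 lay above 0 (51.8% of all genes did) and 3 were counted as higher (9.34% of all genes were), with a median of 0.12. Lig1, the ligase that joins Okazaki fragments, averaged 0.50 ± 0.09, Rpa1, which coats single-stranded DNA, 0.49 ± 0.06, and Pola1, a polymerase subunit, -0.04. Of 23 further mitosis genes 15 were measured, 13 lay above 0 and 4 were counted as higher, with a median of 0.23. Incenp, of the passenger complex with Aurkb and Birc5, averaged 0.49 and Smc2, of condensin, 0.43. Of 7 nucleotide supply genes 4 were measured, with Dck, deoxycytidine kinase, at 0.58 ± 0.11 and a median of 0.14. Of 19 brakes and checkpoint genes 12 were measured, none had a mean ratio 2-fold from embryo, and the median was 0.01. Against 0 h, some of these genes were counted at 2, 7 or 21 h, and each is named here. Across the whole array, the share past 2-fold in either direction was 6.81% at 2 h, 4.74% at 7 h and 9.02% at 21 h. Dnmt1, the maintenance methylase, was higher by 0.32 at 2 h (neighbour value -0.03), and Cdkn2b, an inhibitor of Cdk4 and Cdk6, by 0.37 ± 0.36 at 7 h (SD of 5 probes, neighbour value 0.11). At 21 h the damage response gene Gadd45a was higher by 0.54 (neighbour value 0.13) and the spindle gene Tpx2 lower, with a difference of -0.54 (neighbour value 0.04). Also counted at 21 h were Pola2 at 0.35, Pole2 at -0.31 and the condensin gene Ncapd2 at -0.34, with neighbour values of 0.14, -0.16 and -0.15. With neighbours removed, Pola2 at 0.21, Pole2 at -0.15, Ncapd2 at -0.19 and Cdkn2b at 0.27 were short of 2-fold, while Dnmt1, Gadd45a and Tpx2 remained counted. At 0.5 h, 5 fork genes were higher and 3 lower, 3 mitosis genes each way, and 4 brakes higher and 1 lower (over all genes, 19.9% were higher and 10.6% lower).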

How the data were processed

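The data came from 5 two-colour arrays, 1 per time. Per the labels, macrophage and embryo RNA was reverse transcribed and labelled by the indirect amino-allyl method. The authors deposited 1 log ratio per probe and array, read here as log10. Its base, centring and direction, the scanner and how arrays were normalized are not stated.

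Of 19828 probes, 14759 had 1 symbol, 14628 of them updated through Entrez identifiers in RefSeq (GRCm38.p6). Probes with values on all 5 arrays were averaged per gene, and arrays centred on their median over 8452 genes. The size rule was 2-fold. No test was run, as each group held 1 array. SDs are over 4 arrays or between probes, and hold no spread between cultures. Signal over background is unknown.

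The members and lists were chosen with earlier results of these data known. Genes were named by rule: the markers, the 10 highest and 10 lowest ratios, those 2-fold at 2, 7 or 21 h, the 5 highest and 5 lowest at 0.5 h, a panel of 37 genes (28 measured) and extremes of the other lists. Further genes named in patterns, or for comparison, were picked with their values in view. The steps were tested on simulated data. Python 3.11.15, numpy 2.4.6, pandas 2.3.3 and matplotlib 3.10.9 were used.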

Additional observations from a re-analysis of the deposited data

How the results depend on the processing

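No paired analysis was possible because each group held 1 array. Read as base 2 in place of base 10, 0 genes would be 2-fold higher and 1 lower than embryo (all genes 20 and 64). At 0.5 h there would be 2 and 2 (384 and 50), and at 2 h 0 and 0 (19 and 7). At 7 h 0 would be higher (12), and at 21 h 0 and 0 (3 and 8), so every count rests on the base. A 1.5-fold size gave 35 higher and 10 lower against embryo (1702 and 1441 of all 8452 genes), 26 lower at 0.5 h (all genes 1775), 11 and 7 at 2 h (830 and 735), 11 and 4 at 7 h (905 and 509), and 11 and 17 at 21 h (1027 and 963). Quantile normalization gave 23 and 5 against embryo (all genes 1119 and 832), 6 higher at 0.5 h (1071), 3 lower at 7 h (379) and 13 lower at 21 h (649). Scaling to 1 spread gave 8 higher at 0.5 h (all genes 1056) and 1 lower at 2 h (124). Genes with values on the compared arrays only gave 7 higher and 1 lower at 2 h (542 and 237 of 8941 genes). They gave 1 lower at 7 h (208 of 8942 genes). Removing the median difference of neighbouring probes, chosen after seeing the data, gave 1 lower at 2 h (all genes 202). It gave 2 higher and 2 lower at 7 h (232 and 123), and 2 higher at 21 h (343). Leaving out each array gave 13 to 18 higher (all genes 742 to 918) and 2 to 4 lower than embryo (653 to 807). There were 4 lower without the 7 h or the 21 h array.

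The Plk4 ratio became -0.0056 with all 5 arrays. Kif1b at 0.5 h became -0.14 with neighbours removed. Kif21b became 0.048 at 0.5 h after quantile normalization and 0.51 after scaling to 1 spread, and 0.0024 at 2 h after that scaling. The cause was not tested. Over the alternatives, E2f1 at 21 h ran from 0.38 to 0.53, Mki67 from 0.34 to 0.65 and Mcm6 from 0.27 to 0.50. Of all genes at 7 h, 42.7% of those counted were higher after quantile normalization, against 70.6% as reported. Spot intensities were not used, so what signal over background limits is unknown, and precision is limited by there being 5 arrays.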
